A study of Mus musculus with 10 samples.

Results

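The 5 control libraries described here were made from CD34- hematopoietic stem cells (HSCs) of Reg1flox/flox mice that carry no Cre, and they are 5 of the 10 libraries of the series. They were taken by their titles and genotype labels. Library titles come in a pair of styles, and each style was treated as 1 set: Control 1, Control 2 and Control 3 form the first set, and the Control LT-HSC libraries 1 and 2 form the second set. The donors were 8-week-old C57BL/6 mice, and the cells were sorted from bone marrow as Lin- Sca-1+ c-Kit+ CD34- Flt3-. Both control sets carry loxP sites around Regnase-1, the gene of an RNase that degrades messenger RNAs, so they are unrecombined controls rather than wild-type mice. The 5 libraries labelled Reg1Δ/Δ came from Vav1-iCre; Reg1flox/flox mice, in which Cre is driven in blood cells by the Vav1 promoter, and are used below only as a second view of the set contrast. The set is tied to its mice, its sort and its library preparation, so these cannot be told apart.

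HSCs are rare and mostly resting cells of bone marrow that renew themselves and supply every blood lineage. In mice they lie in the Lin- Sca-1+ c-Kit+ compartment, and the CD34- Flt3- cells of it hold most of the long-term repopulating activity. Their identity rests on a group of transcription factors that includes Tal1, Gata2, Erg and Meis1, and on niche receptors such as c-Kit, the thrombopoietin receptor and CXCR4. A transcriptome of such few cells is read from amplified cDNA, and one gene is represented by several annotated transcripts: full-length coding forms, short partial forms, retained introns and copies elsewhere in the genome.

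4 short sequences are printed from the GENCODE M21 transcripts (GRCm38) to show the kind of transcript described below: a pair of ribosomal protein copies, of which 1 differed between sets and 1 overlapped, the shortest Hlf form and a short transcript that was higher in the second set. The copies were chosen after their values were seen. Capitals mark the first and the last codon in the first 2, which are processed pseudogenes with an intact reading frame, identical in sequence to the coding part of a ribosomal protein messenger RNA. In the 245-nt Hlf transcript, itself annotated as non-coding, capitals mark bases that lie in coding sequence annotated at this place, and in the last sequence nothing is marked.
Rpl38-ps2, identical to 213 bases of a 371-nt Rpl38 transcript from base 118 on, chr6:140746960-140747172, minus strand: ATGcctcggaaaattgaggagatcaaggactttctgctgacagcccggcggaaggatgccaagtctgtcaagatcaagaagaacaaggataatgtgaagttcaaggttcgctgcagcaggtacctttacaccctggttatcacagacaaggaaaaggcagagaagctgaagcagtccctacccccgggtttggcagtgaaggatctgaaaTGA
RP24-417N21.2, identical to 210 bases of a 382-nt Rps28 transcript from base 91 on, chr6:86334031-86334240, plus strand: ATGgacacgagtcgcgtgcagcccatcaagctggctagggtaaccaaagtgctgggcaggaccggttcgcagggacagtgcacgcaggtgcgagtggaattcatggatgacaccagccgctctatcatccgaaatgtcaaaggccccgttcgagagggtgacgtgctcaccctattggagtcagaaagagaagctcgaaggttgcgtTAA
Hlf, 245-nt processed_transcript of 2 exons, chr11:90387923-90389590, minus strand: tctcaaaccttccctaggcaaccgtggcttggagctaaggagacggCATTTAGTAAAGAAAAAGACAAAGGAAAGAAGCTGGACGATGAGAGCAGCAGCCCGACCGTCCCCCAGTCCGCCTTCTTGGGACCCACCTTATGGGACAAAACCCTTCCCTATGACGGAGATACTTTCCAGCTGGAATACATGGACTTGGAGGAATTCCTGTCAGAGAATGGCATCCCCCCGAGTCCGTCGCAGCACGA
Gm24245, 57-nt transcript annotated as a miRNA, chr4:139338304-139338360, plus strand: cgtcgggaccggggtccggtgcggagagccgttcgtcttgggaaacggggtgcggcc

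Rpl38-ps2 was at 3096, 2818 and 3152 TPM in the first set, on a scale where all transcripts of a library sum to 1000000, and listed at 0 in both second-set libraries. Rpl38 itself, the gene of a large-subunit ribosomal protein, was at 430, 343 and 432 TPM against 3603 and 2697 TPM, and the sum with its copy was 3424 TPM in the first set and 3150 TPM in the second. RP24-417N21.2, the copy of Rps28, was at 3017, 2680 and 3296 TPM in the first set and at 2698 and 2077 TPM in the second, with overlapping sets. Rps28 rose from 374, 356 and 381 TPM to 3766 and 3196 TPM. A read inside a copy carries no base that tells it from the parent gene, so the split between them rests on how reads were assigned, and single values for these genes are uncertain.

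All values are TPM computed from deposited log2(TPM + 1) values of 95912 transcripts, which belong to 33393 gene ids. Read depth is unknown, since the tables hold no counts, and no counting interval is given for that reason. The paper does not state whether each library came from a single mouse or from pooled mice. The replicate spread therefore holds technical variation together with an unknown part of the variation between mice. In bulk RNA, fewer cells of a type and less RNA per cell cannot be told apart. 1 library stood apart: in Control 2 of the first set the immediate-early and stress genes summed to 1588 TPM, against 142 to 220 TPM in the others. In the first set, Control 1 also held fewer B-lineage transcripts than its partners.

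Protein_coding transcripts held less than 50% of TPM in the first set and more than 75% in the second. Their share was 47.5%, 46.2% and 46.4% in the first set and 78.3% in both second-set libraries, a difference of 31.6 percentage points. Pseudogenes took 12.2%, 12.7% and 12.8% in the first set and 5.93% and 6.77% in the second, but without transcripts under 300 nt the difference turned from -6.23 to 0.0758 percentage points and the exact p over all 10 libraries rose from 0.01 to 0.13. The processed_transcript class, which holds spliced RNAs with no reading frame, was at 12.2%, 10.9% and 11.8% against 4.42% and 4.23%. Transcripts with a retained intron were at 10.3%, 9.34% and 9.62% against 3.97% and 3.79%. Mitochondrial tRNAs showed the largest ratio between sets, with 4.49%, 7.73% and 5.18% of TPM in the first set and 0.298% and 0.470% in the second. The sets did not overlap for any of these classes. Transcripts annotated for nonsense-mediated or non-stop decay had the ratio nearest to 1 among the classes that fell, from a mean of 3.50% to 2.41%, and long non-coding RNAs went from 1.76% to 0.816%.

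An exact permutation test of 3 against 2 libraries cannot go below p = 0.1, two-sided, and 10 of the 12 classes reached that value. Over all 10 libraries, with set labels exchanged within each labelled genotype, the exact two-sided p was 0.01 (adjusted p = 0.0133 over the 12 classes), the smallest that 100 assignments allow, for 9 classes. The other 3 were miRNA, the immunoglobulin and T-cell receptor segments, and mitochondrial rRNA. The miRNA class was lower in the second control set (2.07% and 1.88% against 4.46%, 4.94% and 4.66%), but across all 10 libraries the exact p was 0.79, with 10.6% in 1 second-set library labelled Reg1Δ/Δ and 1.12% in the other. Receptor segments were at 1.14%, 0.694% and 2.16% in the first set and 0.930% and 0.654% in the second, and the sets overlapped (exact p = 0.4). Mitochondrial rRNA was at 0.036% to 0.055% against 0.051% and 0.083% (exact p = 0.3).

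**Figure D1:**
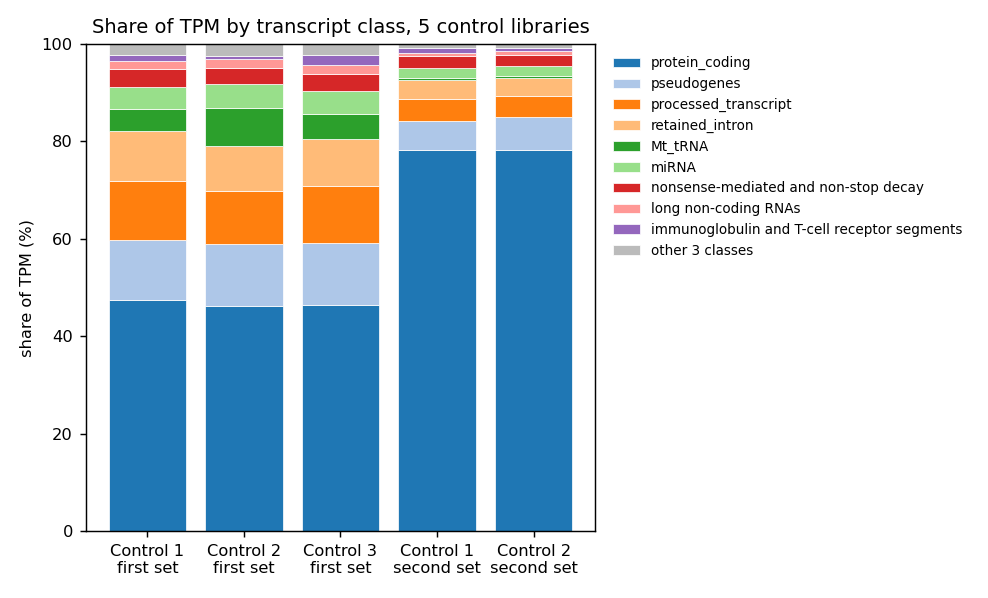
Stacked bars of the share of TPM (%) held by each transcript class in the 5 control libraries, 3 of the first set and 2 of the second, with 9 classes drawn and the other 3 summed in grey. Protein_coding transcripts fill 46.2% to 47.5% of each first-set bar and 78.3% of each second-set bar.

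The difference followed transcript length as well as class. Transcripts under 300 nt held 33.3%, 36.4% and 34.97% of TPM in the first set and 5.53% and 6.16% in the second, although they are 3.76% of the listed transcripts. In the first set, 2235, 2274 and 2226 of these short transcripts had a value above 0, and in the second 419 and 474 did. Classes of 600 nt and longer rose in share, those of 1000 to under 2000 nt from a mean of 12.3% to 23.5% and those of 4000 nt or more from 2.27% to 4.39%. The class of 300 to under 600 nt was at 23.8% to 25.7% against 28.2% and 25.03%, and the sets overlapped. The TPM-weighted mean length was 875, 841 and 856 nt in the first set and 1264 and 1361 nt in the second. Among protein_coding transcripts alone it was 1369, 1348 and 1369 nt against 1428 and 1542 nt, and those under 300 nt took 12.3%, 13.9% and 12.4% of coding TPM against 1.52% and 2.69%. Coding transcripts of 2000 to under 4000 nt went the other way, from a mean of 18.5% to 17.01% of coding TPM, with an exact p over all 10 libraries of 0.9. For the classes over all transcripts this p was 0.01 (adjusted p = 0.012), except for 300 to under 600 nt, where it was 1.

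**Figure D2:**
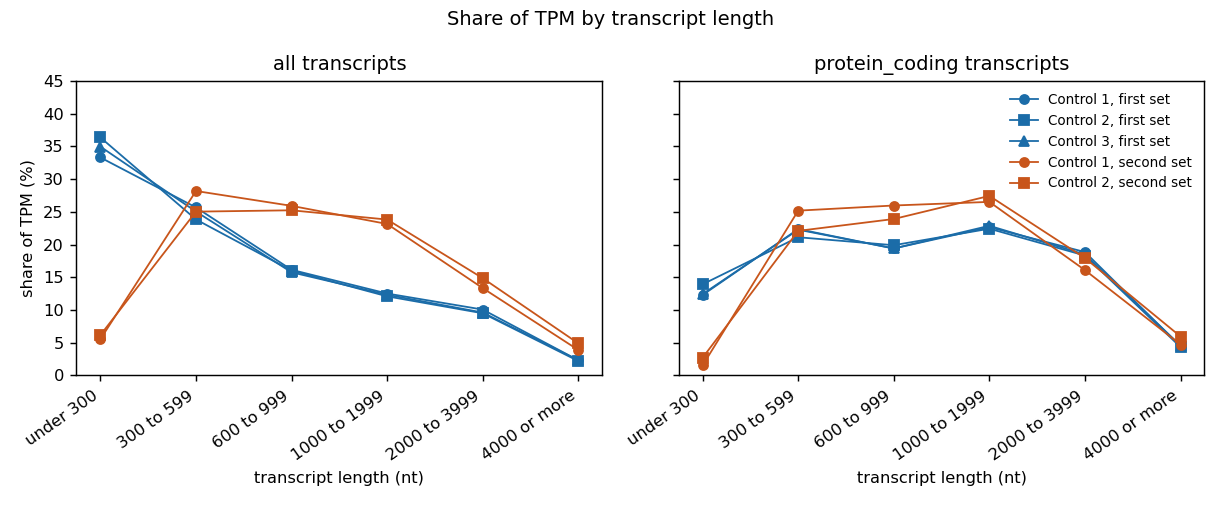
Share of TPM (%) by transcript length class, for all transcripts (left) and within protein_coding transcripts (right), with 1 line per control library, blue for the first set and orange for the second. At under 300 nt the first-set lines lie between 33.3% and 36.4% and the second-set lines at 5.53% and 6.16%.

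The shift also ran within genes. Over 5709 genes with 2 or more transcripts and at least 10 TPM in every control, the median TPM-weighted transcript length was 1375, 1395 and 1394 nt in the first set and 1946 and 1976 nt in the second. In 4157 of them (72.8%) both second-set libraries had a longer mean transcript than all first-set libraries, and in 409 (7.16%) a shorter one. By limma on log2(TPM + 1), 21379 of 42629 transcripts tested differed between sets (50.2%), with 7688 higher (18.0%) and 13691 lower (32.1%) in the second. This split turned with the filter and the scale: among 14898 transcripts at 1 TPM or more in all 5 libraries 4764 were higher and 1651 lower, with a median of 0.37, and quantile normalization gave 12462 higher and 7878 lower. Many tested short transcripts passed the filter through the first set, where they are high, so the values by length describe the tested transcripts only. Of the 300 protein_coding transcripts under 300 nt, 233 were lower in the second set (77.7%) and 5 were higher, with a median log2 difference of -4.51. Of the 4070 protein_coding transcripts of 4000 nt or more, 1871 were higher (46.0%) and 163 lower, with a median of 0.80. Transcripts of other classes had negative medians in every length class, from -3.04 under 300 nt to -0.37 at 4000 nt or more.

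**Figure D3:**
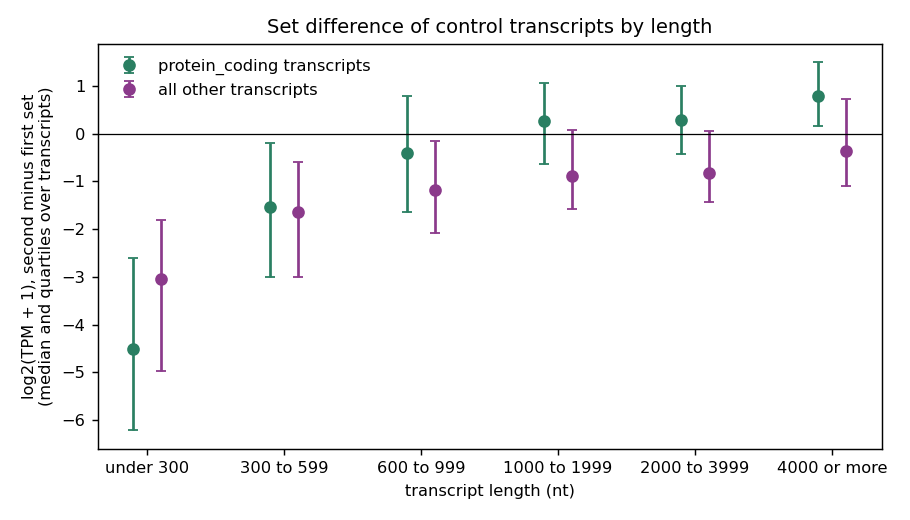
Median log2(TPM + 1) difference, second minus first control set, of tested transcripts by length class, with quartiles as bars, for protein_coding and for all other transcripts. The coding medians climb from -4.51 under 300 nt to 0.80 at 4000 nt or more, and the medians of the others stay below 0.

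When the transcripts of a gene were summed, the sets came closer but remained apart. Pearson's r of log2(TPM + 1) across genes was 0.934 to 0.948 within a set and 0.679 to 0.694 between sets, over 15241 genes that share libraries and normalization and are not independent. Across single transcripts it was 0.832 to 0.925 within and 0.350 to 0.365 between sets. By limma, 5969 of the 15241 genes differed between the control sets at an adjusted p under 0.05 (39.2%), with 2617 higher (17.2%) and 3352 lower (22.0%) in the second. Both sets' values did not overlap for 9699 genes (63.6%), 4398 with the second set higher (28.9%) and 5301 lower (34.8%). The split of calls depended on the scale: quantile normalization called 3845 genes higher (25.2%) and 2472 lower (16.2%), and rescaled protein_coding TPM 1694 higher (13.8%) and 3845 lower (31.4%) of 12234 (45.3%). Protein_coding transcripts of 1000 nt or more as deposited gave 4426 genes higher (42.0%) and 683 lower (6.48%) of 10534. The median difference over all genes was -0.13 (log2), and it moved to 0.16 after quantile normalization, -0.10 with median-of-ratios scaling, -0.37 when only protein_coding TPM was kept and rescaled, -0.50 when these were limited to 300 nt or more, and 0.47 for protein_coding transcripts of 1000 nt or more as deposited. Differences below are on the as-deposited gene sums unless another scale is named, and counts on another scale are to be read against the shares of all genes given here for that scale.

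Despite this, much of the profile was shared. 11030 genes were at 1 TPM or more in all 5 control libraries, and for 8884 of them the highest transcript was protein_coding. At 10 TPM or more in all 5 there were 6356 genes. For 3911 genes (25.7% of those tested) the 95% interval of the set difference lay within a 2-fold change in either direction. The 10 steadiest coding genes at 50 TPM or more were Prps1, Cdk2ap2, Elavl1, Slc25a5, Psma6, Sept1, Mat2b, Rhoa, Psma2 and Smarce1. Prps1, an enzyme of nucleotide synthesis, was at 76.4, 78.3, 79.4, 79.9 and 82.6 TPM. Elavl1, which encodes the RNA-binding protein HuR, was at 84.5, 79.3 and 85.9 TPM in the first set and 79.1 and 84.2 TPM in the second. Slc25a5, the mitochondrial ADP/ATP carrier, was at 708, 724, 710, 685 and 653 TPM, and Psma6, a proteasome subunit, ran from 263 to 291 TPM. These 10 were chosen for their small spread on the gene sums, so the values only describe them, and on the rescaled coding scale Prps1 differed by -1.25 and Elavl1 by -1.10 (log2).

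Of the 100 coding genes with the highest mean over both sets, 55 encode ribosomal proteins and 8 are mitochondrial. The sets were not ranked apart, and ribosomal protein genes held 4.42% to 4.97% of TPM in the first set against 27.0% and 23.7% in the second. Outside those groups the highest included Eef1a1, S100a9, B2m, Ptma, Hspa8, S100a8, Tpt1, Car1, Gapdh, Rac2 and H2afz. Eef1a1, the elongation factor that delivers aminoacyl-tRNA to the ribosome, was at 2251, 1813 and 2150 TPM in the first set and at 12230 and 12480 TPM in the second (log2 difference 2.58 ± 0.19 SE, adjusted p = 6.39e-04). With Gm26377 added, a short transcript that lies within an exon of Eef1a1, the log2 difference was 0.41. Hspa8, a constitutive chaperone, was at 2443, 2089 and 1639 TPM against 2113 and 1950 TPM, with overlapping sets. B2m, the light chain of MHC class I, was at 1871, 2024 and 1637 TPM against 3253 and 3652 TPM.

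All 5 markers given for these cells were at 1 TPM or more in each control library. So were 11030 genes, among them 12 of 12 erythroid, 12 of 13 neutrophil and 11 of 13 B-lineage genes, so detection alone does not set the label apart. Procr, which encodes the stem cell surface receptor EPCR, was at 29.4, 25.8 and 19.8 TPM in the first set and 37.3 and 32.4 TPM in the second, higher in both second-set libraries without passing the test (log2 difference 0.48 ± 0.23 SE, adjusted p = 0.16). Slamf1, the gene of CD150, was at 8.52, 8.67 and 6.34 TPM against 7.65 and 9.75 TPM. Its log2 difference was 0.14 ± 0.22 SE (adjusted p = 0.66, 95% interval -0.43 to 0.70) and turned to -0.49 on the rescaled coding scale. Fgd5, a guanine nucleotide exchange factor used as an HSC reporter locus, was at 6.09, 2.61 and 4.90 TPM against 7.499 and 7.10 TPM (0.64 ± 0.33 SE, adjusted p = 0.18), with -0.63 on the rescaled coding scale. None of these 3 passed the test on the as-deposited scale, and Procr passed after quantile normalization (0.75, adjusted p = 0.049) and over its long coding transcripts (0.86, adjusted p = 0.012). Fgd5 passed in the other direction with coding TPM of 300 nt or more (-0.78, adjusted p = 0.046).

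Mecom and Hlf passed the test, and both depended on which transcripts were summed. Mecom (chr3:29951296-30548008, minus strand), which encodes the EVI1 zinc finger factor, was at 52.6, 41.7 and 45.9 TPM in the first set and at 16.7 and 25.7 TPM in the second (log2 difference -1.13 ± 0.25 SE, adjusted p = 0.020). A 348-nt coding transcript supplied 29.2, 21.8 and 26.5 TPM of this in the first set and 0.668 and 0 TPM in the second. Summed over its coding transcripts of 1000 nt or more, Mecom had means of 15.8 and 19.5 TPM, a log2 difference of 0.25 in the other direction (adjusted p = 0.39), a setting chosen after seeing the data. On the rescaled coding scale Mecom fell further (-1.83, adjusted p = 0.0024). Hlf (chr11:90336536-90390895, minus strand), a PAR bZIP factor of HSCs, was at 176, 142 and 143 TPM against 33.9 and 89.6 TPM (-1.45 ± 0.43 SE, adjusted p = 0.048). The 245-nt transcript printed above made up 131, 90.1 and 101 TPM of Hlf in the first set and 0 and 17.4 TPM in the second. The 5642-nt coding transcript of Hlf was instead at 7.68, 10.4 and 9.33 TPM in the first set and 24.9 and 56.1 TPM in the second, a rise of 1.93 (adjusted p = 0.0019 in the fit of long coding transcripts). The Hlf call was also lost after quantile normalization (-1.06, adjusted p = 0.11) and with a pseudocount of 0.1 (adjusted p = 0.069). Neither call on the gene sums held without single libraries: for Mecom the adjusted p was above 0.05 without Control 1 (-1.04) or Control 3 (-1.14) of the first set or Control 1 of the second (-0.83), and for Hlf it was above 0.05 with any first-set library left out (-1.50 to -1.35) or without Control 1 of the second set (-0.77).

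The genes behind the sort were measured in every library. Kit (chr5:75574916-75656722, plus strand), the stem cell factor receptor used to gate the cells, was at 339, 284 and 367 TPM in the first set and 106 and 165 TPM in the second (-1.30 ± 0.26 SE, adjusted p = 0.015). The pair of long coding Kit transcripts, of 5241 and 5214 nt, had a summed mean of 128 TPM in the first set and 134 TPM in the second, a log2 difference of 0.04 that has the other sign (adjusted p = 0.90). A 392-nt retained-intron form of Kit was at 121, 96.7 and 116 TPM in the first set and listed at 0 in both libraries of the second. Ly6a, the gene of Sca-1, was at 105, 108 and 85.2 TPM against 68.1 and 73.8 TPM, without overlap but short of the threshold (-0.47 ± 0.20 SE, adjusted p = 0.11), and it fell on the rescaled coding scale (-1.22, adjusted p = 0.0049). Cd34, whose protein is absent from the surface of the sorted cells, had RNA at 236, 197 and 142 TPM against 51.9 and 82.0 TPM (-1.51 ± 0.32 SE, adjusted p = 0.018), and its long coding transcripts fell as well, from a mean of 122 to 66.8 TPM. Flt3, the other receptor gated out, was at 33.9, 21.1 and 16.1 TPM against 11 and 14.8 TPM (-0.78 ± 0.35 SE, adjusted p = 0.14), and it too fell on the rescaled coding scale (-1.52, adjusted p = 0.013). The Kit call was lost without Control 1 (-1.28) or Control 3 (-1.22) of the first set or Control 1 of the second (-0.99), and the Cd34 call without Control 1 (-1.34) or Control 2 (-1.48) of the first or Control 1 of the second (-1.19).

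**Figure D4:**
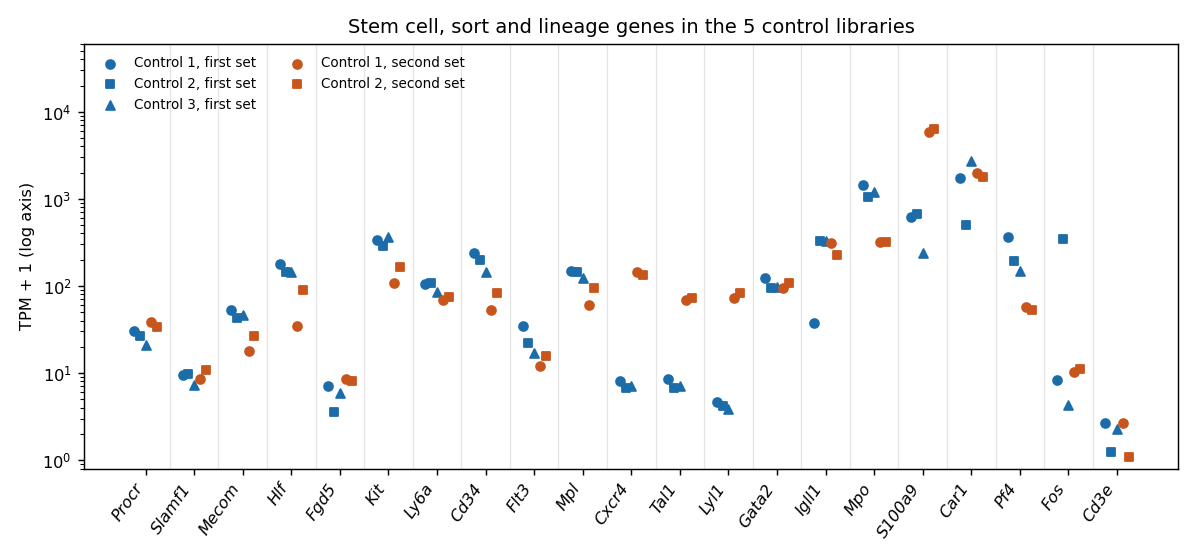
TPM + 1 on a log axis of stem cell, sort and lineage genes, with 1 point per control library, blue for the first set and orange for the second. Gata2 lies at 92.6 to 124 TPM in all 5 libraries, Kit and Cd34 are lower in the second set, and Cxcr4, Tal1 and Lyl1 are at 2.81 to 7.54 TPM in the first set and 68.4 to 142 TPM in the second.

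Of 22 receptor and adhesion genes, 7 were higher in the second set, 6 were lower and 9 did not pass the test, beside 17.2% higher and 22.0% lower of all genes. The balance depended on scale, with 5 higher and 9 lower on rescaled coding TPM, where 13.8% and 31.4% of all genes were, and 9 higher and 1 lower of 22 over long coding transcripts, near the 42.0% and 6.48% of all genes there. Cxcr4 (chr1:128588199-128592293, minus strand), the receptor that holds HSCs in the CXCL12 niche, was at 7.01, 5.73 and 6.01 TPM in the first set and 142 and 131 TPM in the second (4.25 ± 0.18 SE, adjusted p = 1.32e-04). Its long coding transcript rose alike, from a mean of 3.64 to 90.8 TPM. Esam (chr9:37528078-37538319, plus strand), an endothelial-type adhesion molecule of HSCs, went the other way, from 415, 255 and 275 TPM to 32.9 and 32.2 TPM (-3.20 ± 0.27 SE, adjusted p = 9.89e-04). A 216-nt decay-class transcript of Esam carried 361, 216 and 238 TPM in the first set and was listed at 0 in the second, while its 1865-nt coding form was at 41.4, 32.1 and 27.8 TPM against 22.6 and 30.3 TPM, with overlapping sets. Angpt1, a ligand of the Tek receptor, was at 83.6, 99.2 and 68.6 TPM against 52.0 and 79.4 TPM.

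Of 26 stem cell transcription factors and regulators, 9 were higher in the second set, 2 were lower and 15 did not pass the test, beside 17.2% and 22.0% of all genes. On rescaled coding TPM 9 were higher and 6 lower, beside 13.8% and 31.4% of all genes. Tal1 (chr4:115056426-115071755, plus strand), a bHLH factor needed to form blood, was at 7.54, 5.74 and 6.17 TPM in the first set and 68.4 and 70.9 TPM in the second (3.25 ± 0.19 SE, adjusted p = 3.43e-04). Lyl1, a close relative of Tal1 with 1 annotated transcript of 1800 nt, was at 3.70, 3.21 and 2.81 TPM against 71.9 and 83.0 TPM (4.21 ± 0.19 SE, adjusted p = 1.59e-04). Foxo3, a factor of quiescence and stress resistance, was at 1.67, 1.82 and 1.95 TPM against 22.3 and 30.5 TPM (3.27 ± 0.21 SE). Erg, an ETS factor of HSCs, rose by 2.49, the RNA-binding regulator Msi2 by 2.49, and Ldb1, the bridge of the Tal1 and Gata complex, by 1.66 (log2). For each of these the first and second set did not overlap and the long coding transcripts rose too.

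Gata2, a zinc finger factor of stem and progenitor cells, overlapped between sets, with 124, 92.6 and 96.0 TPM in the first set and 94.3 and 107 TPM in the second (-0.04 ± 0.21 SE, adjusted p = 0.89), with a sign that turned to 0.36 after quantile normalization. On the rescaled coding scale Gata2 fell (-0.69, adjusted p = 0.038). Gfi1b (chr2:28609450-28621982, minus strand), a repressor that restrains HSC cycling, was at 636, 375 and 776 TPM against 150 and 176 TPM (-1.81 ± 0.35 SE, adjusted p = 0.013). A 238-nt transcript made up 547, 319 and 652 TPM of Gfi1b in the first set and was listed at 0 in the second, and over its long coding transcripts the difference was 0.25 in the other direction (adjusted p = 0.54). The Gfi1b call on the gene sum was lost without Control 1 (-1.69) or Control 2 (-1.92) of the second set. Meis1, a homeobox factor that maintains HSCs, fell from 116, 127 and 99.3 TPM to 28.6 and 47.0 TPM (-1.60 ± 0.27 SE, adjusted p = 0.0090), and its long coding transcripts had means of 32.7 and 28.6 TPM (adjusted p = 0.55).

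**Figure D5:**
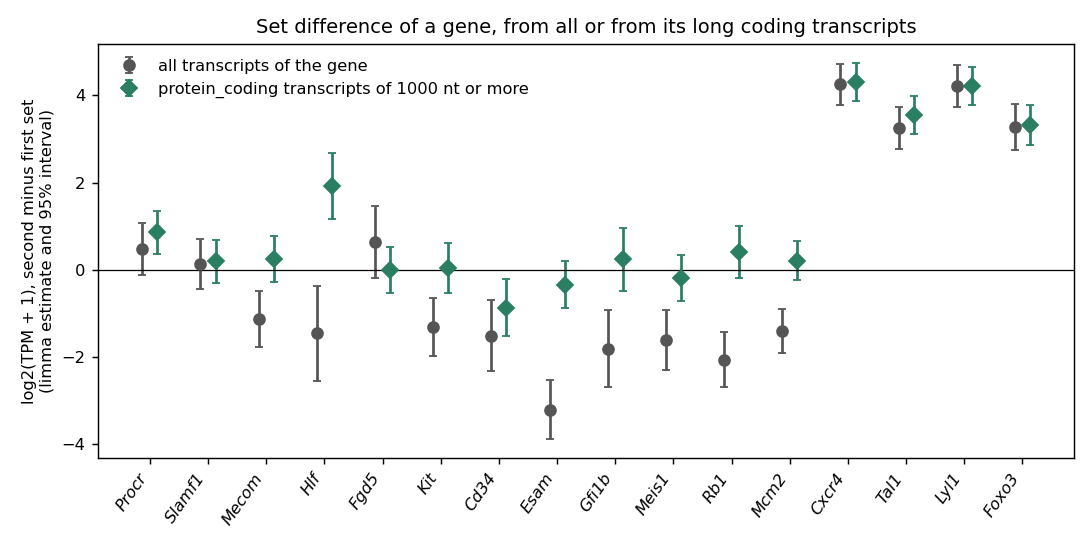
Log2(TPM + 1) difference, second minus first control set, of 16 genes with 95% intervals from limma, from all transcripts of the gene (grey circles) and from its protein_coding transcripts of 1000 nt or more (green diamonds). For Mecom, Kit, Esam, Gfi1b, Meis1, Rb1 and Mcm2 the interval lies below 0 in grey and spans 0 in green, for Hlf it changes side, and for Cxcr4, Tal1, Lyl1 and Foxo3 both lie above 0.

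Cell cycle genes were expressed in both sets. Of 13 quiescence genes, 2 were higher in the second set, 1 was lower and 10 did not pass the test, near the 17.2% higher and below the 22.0% lower of all genes. Over long coding transcripts 7 were higher and none lower, beside 42.0% and 6.48% of all genes there. Cdkn1b, the inhibitor p27, was at 1.55, 2.57 and 1.97 TPM in the first set and 23.2 and 22.8 TPM in the second (3.0 ± 0.21 SE, adjusted p = 5.89e-04). Cdkn2c, the inhibitor p18, was at 6.24, 7.10 and 10.2 TPM against 29.7 and 31.1 TPM (1.85 ± 0.25 SE). Rb1, the retinoblastoma gene, fell from 94.2, 133 and 94.6 TPM to 21.8 and 28.1 TPM (-2.05 ± 0.25 SE), but had a difference of 0.41 with the other sign over its long coding transcripts. All 23 proliferation genes were at 1 TPM or more in every control, with 6 higher, 3 lower and 14 not past the test, beside 17.2% higher and 22.0% lower of all genes. The counts were 3 and 2 on rescaled coding TPM (13.8% and 31.4% of all genes) and 10 and 1 of 22 over long coding transcripts, near the 42.0% and 6.48% of all genes there. Mki67 was at 9.18, 17.2 and 13.9 TPM against 72.3 and 68.0 TPM (2.34 ± 0.29 SE, adjusted p = 0.0033), and Top2a, a topoisomerase of dividing cells, at 67.5, 108 and 91.2 TPM against 260 and 242 TPM (1.52 ± 0.25 SE), which did not pass on the rescaled coding scale (0.61, adjusted p = 0.14). Mcm2 and Mcm4, subunits of the replicative helicase, were lower in the second set (-1.41 and -1.50), with 0.21 and 0.45 in the other direction over their long coding transcripts. On the rescaled coding scale Mcm4 fell further (-2.25, adjusted p = 8.16e-04), and Mcm2 did not pass (-0.53, adjusted p = 0.068). Summed over the 23 genes the sets were at 3044, 3268 and 3402 TPM and 3744 and 3686 TPM.

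Genes of other blood cells were present in each library, and their part in the set difference was not tested. All 13 neutrophil granule genes were tested and 12 were at 1 TPM or more in every control. They summed to 5610, 5645 and 3267 TPM in the first set and 11953 and 13851 TPM in the second, with 7 higher and 3 lower, beside 17.2% and 22.0% of all genes. The counts were 6 and 5 on rescaled coding TPM (13.8% and 31.4%) and 7 and 1 with quantile normalization (25.2% and 16.2%). S100a9, a calcium-binding protein of mature neutrophils, was at 614, 666 and 237 TPM against 5864 and 6262 TPM (3.72 ± 0.49 SE, adjusted p = 0.0041), whereas Mpo, the peroxidase made by earlier granulocyte precursors, fell from 1445, 1049 and 1193 TPM to 321 and 318 TPM (-1.93 ± 0.21 SE, adjusted p = 0.0022). The 12 erythroid genes summed to 6214, 3460 and 4528 TPM against 8522 and 6777 TPM. Car1, a carbonic anhydrase of erythroid precursors, varied more within the first set (1751, 505 and 2709 TPM) than between sets (1961 and 1766 TPM in the second).

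B-lineage genes divided the libraries in another way. The 13 genes summed to 198 TPM in Control 1 of the first set, to 1316 and 1240 TPM in its partners, and to 1719 and 1512 TPM in the second set. Igll1, part of the surrogate light chain of early B cells, was at 36.5, 330 and 323 TPM in the first set and 307 and 223 TPM in the second. Ebf1, the B-lineage specifying factor, was at 2.86, 50.2 and 52.6 TPM against 28.4 and 21.5 TPM. Only Rag1, the recombinase of antigen receptor genes, passed the test among the 13, from 0.149, 1.10 and 1.33 TPM to 19.1 and 24.2 TPM (3.66 ± 0.36 SE, adjusted p = 0.00165), while its partner Rag2 was at 4.38, 27.3 and 16.4 TPM against 22.4 and 24.9 TPM. The 7 targets of the lineage antibodies, all tested, summed to 263, 141 and 295 TPM against 192 and 190 TPM, with 2 higher and 1 lower (17.2% and 22.0% of all genes), or 1 and 2 on rescaled coding TPM. Of the T and NK genes, the 3 CD3 chain genes stayed at 0.0936 to 2.90 TPM in all controls. The 14 genes summed to 385 to 458 TPM in the first set and 175 and 179 TPM in the second, with Nkg7 at 225 to 269 TPM against 78.5 and 63.2 TPM and Gata3 at 99.8 to 118 TPM against 12 and 13.01 TPM. The list as a whole was mixed: of the 14, all tested, 2 were higher and 3 lower (17.2% and 22.0% of all genes). Their median difference was 0.25 (log2), and on rescaled coding TPM 1 was higher and 3 lower of 13 (13.8% and 31.4% of all genes).

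Megakaryocyte genes, many of which HSCs also transcribe, summed to 491, 304 and 262 TPM in the first set and 126 and 151 TPM in the second. Of the 10 tested, 1 was higher, 2 were lower and 7 did not pass the test (17.2% higher and 22.0% lower of all genes). Their median difference was -0.04 (log2). The counts were 0 and 3 on rescaled coding TPM (13.8% and 31.4%) and 3 and 0 of 8 over long coding transcripts (42.0% and 6.48%). Itga2b, the CD41 integrin chain, fell from 62.9, 57.0 and 62.9 TPM to 12.6 and 17.9 TPM (-1.95 ± 0.21 SE, adjusted p = 0.0023), and its long coding transcripts had means of 17.2 and 13.6 TPM without passing the test. Of 12 monocyte and macrophage genes 6 were higher in the second set and none lower (17.2% and 22.0% of all genes), or 5 and 1 on rescaled coding TPM, and they summed to 494 to 671 TPM against 1059 and 884 TPM. Endothelial and stromal genes were low, with 3 of 11 at 1 TPM or more in all controls, no member at 0 in all 5 and sums of 42.6 to 48.1 TPM against 70.4 and 91.5 TPM. Cdh5, VE-cadherin, was at 0.00601, 0.317 and 0.0425 TPM against 9.57 and 10.6 TPM. It passed the filter only through the second set, so no test is given. Bglap, the bone protein osteocalcin, was above 0 in 1 library only, at 0.214 TPM in Control 2 of the first set. The 4 mast cell, basophil and eosinophil genes found were at 91.4, 161 and 104 TPM in sum against 46.1 and 45.2 TPM.

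Ribosomal protein genes formed the block with the greatest gain. They held 4.97%, 4.42% and 4.95% of TPM in the first set and 27.0% and 23.7% in the second, and 7.31%, 6.64% and 7.49% against 31.8% and 27.9% of protein_coding TPM. Of 83 tested, 76 were higher in the second set and 3 lower, beside 17.2% and 22.0% of all genes, with a median of 2.61 (log2) and 80 higher without overlap, and on the rescaled coding scale 73 were higher and 3 lower. Rps24 rose from 479, 468 and 464 TPM to 11533 and 9713 TPM (4.49 ± 0.18 SE), and Rplp1, an acidic stalk protein, from 462, 429 and 521 TPM to 8333 and 7101 TPM (4.03 ± 0.19 SE). Rps19, the gene mutated in Diamond-Blackfan anemia, did not pass the test, at 2569, 2223 and 2341 TPM in the first set and 2986 and 2631 TPM in the second. Rps27 and its near-identical relative Rps27rt moved oppositely: Rps27 was at 977, 997 and 1017 TPM against 12.9 and 260 TPM, and Rps27rt at 78.7, 39.4 and 56.6 TPM against 7012 and 5625 TPM (6.78 ± 0.33 SE). The Rps27 call (-4.05 ± 1.20 SE, adjusted p = 0.048) was lost without any 1 of the first-set libraries (-4.07 to -4.04), its value was -1.94 without Control 1 and -6.17 without Control 2 of the second set, and as their sequences overlap the split between these 2 genes is uncertain.

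The gain depended on which transcripts were counted. The 223 protein_coding transcripts of ribosomal protein genes held 3.34% ± 0.23 of TPM (SD, n = 3) in the first set and 23.3% ± 2.2 (SD, n = 2) in the second. Their other transcripts held 1.44% and 1.98%. The 331 pseudogene transcripts with 50% or more of their 25-mers in these held 4.22% in the first set and 2.98% in the second. The coding transcripts alone gave a 7.0-fold ratio between sets, with the genes' other transcripts it was 5.30-fold, and with the copies added the 3 groups held 9.0% and 28.3%, a 3.14-fold ratio. So the copies held more than the coding transcripts in the first set and far less in the second.

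Other short transcripts were found whole inside longer ones. Of 3564 transcripts of 50 nt to under 300 nt with a sequence, 310 (8.70%) lay entirely within a transcript of another gene. Among the 43 that had 1000 TPM or more in every first-set library, 17 (39.5%) did so, 15 of them in a transcript of another locus and 2 within an exon of the host. Of the 43, 19 were listed at 0 in both second-set libraries. Since these 43 were picked for their first-set level, the counts only describe them. The 2 within an exon were Gm22133 and Gm26377. Gm22133, a 109-nt miRNA annotation at chr7:45458089-45458197 on the minus strand, lies within an exon of the ferritin light chain gene Ftl1. It was at 11420, 9020 and 10859 TPM in the first set and listed at 0 in the second, while Ftl1 was at 1601, 1337 and 1586 TPM against 1761 and 1673 TPM. Gm26377, of 108 nt at chr9:78478528-78478635 on the minus strand, lies within an exon of Eef1a1 and was at 5912, 10137 and 5631 TPM against 0 in both. Eef1a1 and Gm26377 together had means of 9298 TPM in the first set and 12355 TPM in the second. Ftl1 and Gm22133 together had means of 11941 and 1717 TPM. Gm44346, at chr13:21786875-21787015 on the plus strand, lies opposite an exon of the histone gene Hist1h2an and was at 5138, 5518 and 7346 TPM against 0 in both. Gm24245, printed above, ran the other way with 674, 1194 and 1046 TPM against 10605 and 9801 TPM (3.43 ± 0.32 SE, adjusted p = 0.0011), as did Mir6236 with 1035, 1641 and 868 TPM against 6334 and 6725 TPM.

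Mitochondrial genes held 7.55%, 12.3% and 8.70% of TPM in the first set and 2.06% and 4.49% in the second. A single tRNA gene made up much of this: mt-Ts1, the 69-nt serine tRNA, was at 39047, 67444 and 45922 TPM against 665 and 889 TPM. The alanine tRNA mt-Ta was at 1188, 1944 and 913 TPM against 0 in both, and the proline tRNA mt-Tp rose from 300, 235 and 320 TPM to 2174 and 3462 TPM. Of the 13 mitochondrial messenger RNAs, 7 were higher in the second set and 3 lower (17.2% and 22.0% of all genes), and on rescaled coding TPM 4 were higher and 3 lower. mt-Co1, a core subunit of cytochrome oxidase, was at 1115, 1902 and 1239 TPM against 4344 and 9151 TPM (2.19 ± 0.41 SE, adjusted p = 0.012). The 204-nt mt-Atp8, an ATP synthase subunit and the shortest of them, was at 18538, 26595 and 21753 TPM against 3516 and 9863 TPM. In the second set Control 2 was above Control 1 for each of the 13.

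Among 15 long non-coding RNAs tested, 7 were higher in the second set and 5 lower (17.2% and 22.0% of all genes), with 2 lower once quantile normalization was applied. Malat1 (chr19:5795690-5802672, minus strand), an abundant nuclear RNA, was at 1519, 2186 and 1326 TPM against 6.03 and 10.05 TPM (-7.54 ± 0.32 SE, adjusted p = 1.32e-04). A 485-nt transcript carried 1502, 2155 and 1309 TPM of it in the first set and was listed at 0 in the second, and the 6983-nt transcript went from 16.99, 30.3 and 16.4 TPM to 6.03 and 8.27 TPM. Gas5, a host gene of snoRNAs, was steadier at 956, 967 and 906 TPM against 1368 and 1338 TPM. Of 48 histone genes tested, 16 were lower in the second set, 3 were higher (22.0% and 17.2% of all genes) and 29 did not pass the test. The 68 listed summed to 1113, 1266 and 1406 TPM against 178 and 160 TPM. Hist1h2ap, an H2A gene, made up most of this sum in the first set, at 855, 810 and 1124 TPM against 2.68 and 12.5 TPM (-7.03 ± 0.57 SE, adjusted p = 8.87e-04).

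Of 12 housekeeping genes 5 were higher and 2 lower in the second set, beside 17.2% and 22.0% of all genes. With quantile normalization the counts were 2 and 5 (25.2% and 16.2% of all genes), and over long coding transcripts 7 of 8 were higher and none lower (42.0% and 6.48% of all genes there). Hprt was at 156, 210 and 172 TPM against 172 and 187 TPM. Gapdh was at 2007, 1844 and 1804 TPM against 1489 and 1649 TPM (-0.26 ± 0.17 SE, adjusted p = 0.27), but on the rescaled coding scale it rose by 0.81 (adjusted p = 0.016) and after quantile normalization it fell (-0.94, adjusted p = 0.0082). A 565-nt retained-intron form of Gapdh was at 556, 500.02 and 510.1 TPM in the first set and 0 and 4.98 TPM in the second. Actb was at 1084, 1130 and 1197 TPM against 894 and 973 TPM (-0.28 ± 0.17 SE, adjusted p = 0.24), but it fell after quantile normalization (-0.67, adjusted p = 0.024) and on the rescaled coding scale (-0.73, adjusted p = 0.020), with 1.41 in the other direction over its long coding transcripts. Tpt1, a translationally controlled growth protein, rose from 338, 544 and 350 TPM to 3210 and 3672 TPM (3.10 ± 0.28 SE, adjusted p = 0.0012), and its 1169-nt coding transcript from 2.87, 7.05 and 5.47 TPM to 3152 and 2672 TPM. Of 15 glycolysis genes 2 were higher and 3 lower, near the 17.2% and 22.0% of all genes, with 3 and 7 on rescaled coding TPM (13.8% and 31.4%) and 9 and none over long coding transcripts (42.0% and 6.48%). Their sum was 4787 to 5692 TPM against 4397 and 5094 TPM. Of 13 interferon-stimulated genes 2 were higher and 1 lower, and of 9 imprinted genes tested 3 were higher, beside the same shares of all genes. Over long coding transcripts 5 of 10 and 6 of 7 were higher, beside 42.0% of all genes. Hoxb4, a homeobox gene that expands HSCs when forced, was at 0.117, 0.248 and 0.197 TPM against 2.39 and 2.27 TPM. It entered the fit only through the second set, so its call among the stem cell factors supports nothing.

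None of the 11 immediate-early and stress genes tested passed the test between sets, beside 39.2% of all genes, and 1 was lower on rescaled coding TPM. They separated 1 library. Fos was at 345 TPM in Control 2 of the first set and at 3.35 to 10.1 TPM in the other 4. Egr1 was at 132 TPM there and 7.63 to 9.13 TPM elsewhere, and Dusp1 at 303 TPM against 16.4 to 29.4 TPM. These genes respond within minutes to handling and signals, and all 3 were highest in the same library.

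The widest set differences in coding genes ran over several powers of 2. The 10 greatest rises by the fitted difference were Gm17374, Rps27rt, Rps12-ps3, Hnrnpa0, Rpia, Npm3, Hnrnpul2, RP23-24J10.5, H2-Q4 and Chmp4b. Hnrnpa0, an intronless hnRNP gene, was at 2.50, 2.78 and 2.10 TPM against 176 and 223 TPM (5.85 ± 0.20 SE, adjusted p = 7.54e-05). Rpia, an enzyme of the pentose phosphate pathway, was at 0.954, 0.676 and 0.960 TPM against 99.8 and 112 TPM, with no test since it passed the filter only through the second set, and the chaperone Npm3 at 2.65, 2.83 and 3.74 TPM against 229 and 207 TPM. H2-Q4, an MHC class I gene, and Chmp4b, of the ESCRT membrane machinery, rose by 5.28 and 5.24. The 10 greatest falls included RP23-294G7.1, RP23-183P22.1, Gm10197, RP23-478I18.1, RP23-83K12.3, Gm10226, Hist1h2ap, RP23-330D3.6 and Gm21060. RP23-294G7.1, with a highest transcript of 195 nt, was at 649, 770 and 434 TPM against 0 in both. In 8 of the 10 the highest transcript was under 300 nt. Rac2, a blood cell GTPase among the 15 most abundant genes, fell in sum from 3092, 3176 and 2639 TPM to 288 and 518 TPM (-2.94 ± 0.30 SE), with a 254-nt transcript at 2372 to 2848 TPM in the first set, and its 3038-nt coding form rose by 0.83.

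The same contrast was made in libraries that share no sample with the controls. Zc3h12a, the gene of Regnase-1, was at 1.83, 1.28 and 1.60 TPM in the first control set and 1.48 and 6.07 TPM in the second. In the libraries labelled Reg1Δ/Δ it was at 3.54, 2.08 and 2.51 TPM and at 10.3 and 8.52 TPM, which is higher than in the controls of the same set, so the gene sum does not show the deletion that the label names. By qRT-PCR the paper found Regnase-1 RNA nearly lost in CD34- HSCs of Reg1Δ/Δ mice. The gene sum is another measure and does not check that result. Between the 3 first-set and 2 second-set libraries labelled Reg1Δ/Δ, 6728 of the 15241 genes differed (44.1%), with 3366 higher and 3362 lower (22.1% each). 4175 genes were called in the same direction in both genotypes, which is 69.9% of the control calls and 62.1% of the Reg1Δ/Δ calls, and 20 were called in opposite directions. A test of the interaction of set and labelled genotype called 323 genes (2.12%), against 2334 at an unadjusted p under 0.05. The share of TPM under 300 nt was 32.0% to 34.6% in the first-set libraries labelled Reg1Δ/Δ and 3.89% and 12.7% in those of the second set, and the protein_coding share was 48.2% to 49.1% against 81.1% and 73.5%.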

How the data were processed

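The authors sequenced amplified cDNA of sorted CD34- HSCs on a HiSeq2500 in 101-base paired-end mode, named STAR v2.4.2a and Salmon v0.9.1, and used GRCm38.p4 (mm10) with GENCODE M17. The labels name the SMART-Seq v4 kit for all libraries and the methods SMARTer Ultra Low Input v3. They deposited log2(TPM + 1) per transcript, with Ensembl gene id, length and biotype. Salmon divides by effective length, so a few reads on a short transcript give a high TPM. Here values were turned back to TPM and summed per gene id. Counts and depth were not given, so no count test was run. The log2(TPM + 1) values (pseudocount 1) of genes or transcripts at 1 TPM or more in at least 2 control libraries were fitted by limma v3.58.1 in R v4.3.3, second against first set, with Benjamini-Hochberg adjustment and a threshold of 0.05. Shares were compared by exact permutation tests, two-sided, adjusted within their family. ± is the standard error of limma or, where written, the SD. Fold changes on this scale understate those of low genes. All of the 42 deposited biotypes were grouped into 12 classes and lengths into 6 classes. The fit was tested on simulated data. 1 library labelled Reg1Δ/Δ carries another library's title inside its file and was assigned by its record. Alternatives were other pseudocounts, filters and scalings, rescaled coding TPM, removal of transcript groups, a replicate block and leaving out each library. Same-numbered libraries did not deviate together (correlations of -0.005 and -0.004). Sequences and positions came from GENCODE M21 on GRCm38. Members, gene lists and named genes (members of set lists, the 15 highest genes, the 10 largest changes in each direction, the 3 highest transcripts of each class, the 10 steadiest genes) were chosen with earlier results of these data known. Rps28, Rpl38 and their copies, Gm26377, Gm44346 and the short forms of Rac2 were chosen after their values were seen. Some items are not reported here.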

Additional observations from a re-analysis of the deposited data

Results flagged for a closer look

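In Control 2 of the first set the summed TPM of the 14 immediate-early and stress genes was 1588.36, against 142 to 220 in the other 4 controls, a gap of 0.946 of the whole range and more than 5 libraries allow at the 95% level. 96 list sums and shares were screened in this way, and chance marks about 1 in 20 of them. The set difference itself depended on the labelled genotype for 323 genes, by the interaction test of limma at an adjusted p under 0.05.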

How the results depend on the processing

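Read depth is not given, so low values carry an unknown counting error, and 2 libraries in the second set leave few degrees of freedom. The protein_coding difference of 31.6 points was 28.7 without the 50 highest transcripts, 30.5 without mitochondrial transcripts and 18.9 without transcripts under 300 nt. In the same order of settings the retained_intron difference was -6.64, -6.75 and -8.21 points and the mean length difference 524, 407 and 157 nt, and the share under 300 nt differed by -23.1 and -24.9 points in the first 2. The pseudogene difference was -7.34 points without mitochondrial transcripts and turned to 0.0758 without transcripts under 300 nt (stratified exact p = 0.13), so it rested on short pseudogenes by construction of that setting. Leaving out each library in turn gave 31.4 to 32.0 points for protein_coding, -29.8 to -28.3 for under 300 nt, -6.65 to -5.81 for pseudogenes, -6.06 to -5.60 for retained_intron and 407 to 504 nt for mean length. It gave 1843 to 2097 genes higher and 2263 to 2918 lower, and 5630 to 7193 transcripts higher and 11220 to 13405 lower. Genes higher numbered 1694 with rescaled coding TPM (3845 lower), 1491 with coding TPM of 300 nt or more and 4426 with coding transcripts of 1000 nt or more (683 lower), and the last 2 settings were chosen after seeing the data. Transcripts higher and lower numbered 4764 and 1651 at 1 TPM in all 5 libraries and 12462 and 7878 after quantile normalization. Both the quantile and the coding settings moved the split of higher against lower calls by over 10 points.

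Replicate numbers are shared by only 2 pairs and same-numbered libraries did not deviate together. The replicate block called 1413 genes higher and 2135 lower, and 3153 transcripts higher and 8535 lower.

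Over the refits of named genes, 571 kept side and direction, 39 lost the call, 12 gained it and 24 turned sign. The turns were, with coding TPM rescaled, Slamf1 -0.49, Hlf 0.22, Fgd5 -0.63 and Gapdh 0.81. With coding TPM of 300 nt or more they were Slamf1 -0.65, Hlf 0.054, Fgd5 -0.78 and Gapdh 0.64. With coding transcripts of 1000 nt or more they were Mecom 0.25, Hlf 1.93, Fgd5 -0.0025, Kit 0.042, Gfi1b 0.25, Gata2 0.28, Rb1 0.41, Mcm2 0.21, Mcm4 0.45, Gapdh 2.94, Actb 1.41 and Rac2 0.83. Quantile normalization gave Gata2 0.36, and leaving out each library gave -0.022 to 0.29 for Slamf1 and -0.13 to 0.088 for Gata2. The cause was not tested.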

Other observations

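Structural RNAs outside the comparisons above ranged widely in level. Rn7sk, the RNA of the 7SK complex, was at 14.5, 7.74 and 9.69 TPM in the first set and 12.2 and 8.17 TPM in the second. Rn7s1, of the signal recognition particle, was at 284, 340 and 275 TPM against 158 and 395 TPM. Terc, the telomerase RNA, was at 0.776, 1.41 and 0.783 TPM in the first set and listed at 0 in the second, and Vaultrc5, a vault RNA, at 26.9, 52.4 and 19.4 TPM against 0 in both. Rn18s-rs5, an 18S ribosomal RNA copy, was at 264, 308 and 240 TPM against 1345 and 1308 TPM.

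Imprinted genes that mark fetal growth programs were low in all controls. H19 was at 0.124, 0.368 and 0.373 TPM in the first set and 2.36 and 6.98 TPM in the second, Igf2 at 0.959 to 1.14 TPM against 1.78 and 1.88 TPM, and Meg3 at 0.608 to 1.60 TPM against 0.132 and 0.663 TPM. Gnas, by contrast, was at 440, 360 and 452 TPM against 478 and 545 TPM. Receptor gene segments rested on few libraries: Ighj4 was at 242, 757 and 5644 TPM in the first set, with the highest value in Control 3, and at 558 and 255 TPM in the second, and Igkc was at 294, 19.3 and 411 TPM against 1486 and 776 TPM.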
